A study of Mus musculus with 12 samples.

Results

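The genes described here encode the translation initiation factors (eIFs) and elongation factors (eEFs) of mouse cells. They were taken as every protein-coding gene in the count files whose symbol starts with Eif or Eef. The 4 kinases of eIF2 (Eif2ak1 to Eif2ak4), the eIF4E-binding repressors Eif4ebp1 and Eif4ebp2, and the sex-linked copies Eif2s3x and Eif2s3y were left out. Among 37583 gene identifiers, 74 had such a symbol, 6 of these were not protein-coding, 8 were left out by name and 60 remained. Of the 60 factors, 56 passed the filter on low counts and were tested.

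Gene expression was measured by RNA sequencing in 12 clones, 6 Tafazzin knockout (KO) and 6 wild type (WT). Tafazzin (symbol Taz in the files) is an X-linked acyltransferase that remodels cardiolipin, the characteristic phospholipid of mitochondria. Both genotypes are on the C57BL/6 strain and derive from fetal liver progenitors taken at embryonic day 15.5. All clones carry a retroviral ER-Hoxb8 fusion that, in the presence of estradiol, holds them as dividing granulocyte-monocyte progenitors (GMPs). RNA came from cells growing in 0.5 µM estradiol, 10% serum and stem cell factor at about 50 ng/ml, so the measured state is that of an immortalized progenitor and not of blood cells in the animal. Each library is 1 single-cell clone. KO clones are 3G, 3H, 3I, 4J, 4K and 4L, and WT clones are 1A, 1B, 1C, 2D, 2E and 2F. Values of single clones are always listed in these orders. What the number in a clone's title stands for is not given. Should it stand for an embryo or a founding culture, clones with the same number share their origin, and p-values computed over 12 clones are smaller than they should be.

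Taz itself was at 3.35 ± 0.68 CPM (reads in the gene scaled to library size) in KO clones and 39.1 ± 2.58 CPM in WT clones (SD, n = 6 each), a log2 fold change of -3.54, so the genotype labels hold in this respect. Libraries held between 18970252 and 23658158 counts in KO clones and between 21966954 and 27431544 in WT clones, and the totals differed between genotypes (exact two-sided permutation p = 0.0152). Reads aligned to more than 1 place made up 44.0% ± 0.54 of records in KO clones and 43.2% ± 0.38 in WT clones (exact two-sided permutation p = 0.0152). GMP markers summed to between 11541 and 19338 CPM in KO clones and between 12494 and 21681 CPM in WT clones. Markers of mature neutrophils (9 genes, 7 of them tested, 1 called lower in KO) summed to between 15.9 and 144 CPM in KO clones and between 22.1 and 1510 CPM in WT clones, with WT clone 2D at the top and no other clone above 144 CPM. Markers of fetal hepatocytes (4 genes) summed to 141 CPM in KO clone 3G and to at most 1.95 CPM in any other clone. Markers of pre-B cells (5 genes, 2 of them called lower in KO) summed to between 2.76 and 5.95 CPM in KO clones and between 9.89 and 63.9 CPM in WT clones. Mast cell and basophil markers (4 genes) summed to 1999 to 4678 CPM in KO clones and 1007 to 3806 CPM in WT clones. Of these, Cpa3 averaged 3108 CPM in KO clones and 1937 CPM in WT clones. Megakaryocyte markers (4 genes, 1 called lower in KO) summed to 139 to 285 CPM in KO and 117 to 332 CPM in WT clones. Erythroid markers (5 genes) summed to 3.42 to 16.7 CPM in KO and 4.41 to 62.9 CPM in WT clones. Fcer1a (mast cell) and Hba-a1 (erythroid) had at most 3 counts in every clone. The part of other cell types in the results below was not tested.

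Translation initiation brings the small ribosomal subunit to the start codon of an mRNA. eIF1, eIF1A, eIF3 and a complex of eIF2 with GTP and the initiator tRNA load onto the small subunit, the eIF4 factors bind the capped mRNA end and unwind it, and eIF5B joins the large subunit. During elongation, eEF1A brings each aminoacyl-tRNA to the ribosome, the eEF1B subunits recharge eEF1A with GTP, and eEF2 moves the ribosome along by a codon. Proliferating blood progenitors depend on high rates of protein synthesis, and these factors are among the abundant mRNAs of such cells.

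The promoters of 3 of the factors that were higher in KO clones are shown first, because they hold the DNA motifs that were looked up in every factor. The 2 motifs searched on both strands were CACGTG, the E-box bound by basic helix-loop-helix factors such as Myc and TFE3, and TGATGNAA, the composite element bound by C/EBP and ATF4 pairs. CACGTG reads the same on both strands, and its last 2 letters can be the first of TGATGNAA. Each motif was counted on its own, in any window of a gene. Sequences are from RefSeq, build GRCm38.p6, which is later than the mm9 of the counts, and run 5′ to 3′ from 100 bases before the annotated start of transcription to 50 bases after it. Capitals mark the motif, which is read on the reverse strand in the last of the 4 sequences.

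Eef2 chr10:81176531-81176680 plus strand: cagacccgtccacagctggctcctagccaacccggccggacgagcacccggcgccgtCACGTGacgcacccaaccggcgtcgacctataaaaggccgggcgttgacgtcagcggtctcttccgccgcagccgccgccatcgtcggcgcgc
Eif3f chr7:108934315-108934464 plus strand: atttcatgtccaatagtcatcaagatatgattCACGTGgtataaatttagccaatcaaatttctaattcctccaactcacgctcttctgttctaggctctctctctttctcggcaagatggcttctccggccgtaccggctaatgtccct
Eef2k chr7:120842731-120842880 plus strand: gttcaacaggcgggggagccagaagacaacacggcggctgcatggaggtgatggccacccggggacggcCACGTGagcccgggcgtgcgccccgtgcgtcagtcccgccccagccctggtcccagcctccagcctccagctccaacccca
Eef2k chr7:120851089-120851238 plus strand: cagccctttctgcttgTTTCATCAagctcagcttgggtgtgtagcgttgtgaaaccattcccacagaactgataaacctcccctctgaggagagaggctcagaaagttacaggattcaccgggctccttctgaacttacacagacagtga

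The E-box begins 43 bases before the start of Eef2, which encodes the translocation factor eEF2. It begins 68 bases before the start of Eif3f, an eIF3 subunit, and 31 bases before a start of Eef2k, the kinase that phosphorylates and slows eEF2. The composite element lies 84 bases before another annotated start of Eef2k. Of the 60 factors, 45 had an entry in the promoter table, whose windows run from 250 bases before to 50 after a start, and 12 of them (26.7%) held CACGTG. Among all 27025 genes of the table, 2187 (8.09%) held it. TGATGNAA was in 1 of the 45 factors (2.22%) and in 1219 of all genes (4.51%). Of the 8 higher factors with an entry, 3 (37.5%) held CACGTG and 1 (12.5%) held TGATGNAA. Eef1a1, Eef1b2, Eif1, Eif3c and Eif5 had an entry and held neither motif. The genes of the table were not matched to the factors in expression or base composition. A gene with several windows also has more chances to hold a motif. Differences between these shares were not tested. The 9 factors with an E-box that were not called were Eif1b, Eif3a, Eif3k, Eif4a1, Eif4e, Eif4g1, Eif4h, Eif5a and Eif5a2. A match describes these letters only, and the deposited counts do not measure binding.

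At an adjusted p under 0.05, 9 factors were higher in KO than WT clones and 2 were lower. The 9 higher factors were Eef1a1, Eef2, Eef2k, Eef1b2, Eif1, Eif3c, Eif3e, Eif3f and Eif5, and the 2 lower ones were Eif5b and Eef1akmt1. They make up 16.1% and 3.57% of the 56 factors tested. Across all 11819 genes tested, 3.99% were higher in KO and 3.94% were lower, 7.94% in either direction. The share of higher factors is thus above that of all genes, and the share of lower factors is near it. An unadjusted p under 0.05 was found for 20 of the 56 factors (35.7%) and for 23.7% of all genes.

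The factors are abundant mRNAs, and abundant genes are called more often. The median factor was at 196 CPM against 36.1 CPM for all genes tested. Among genes of at least 100 CPM, a class added after the values were seen, 9 of 41 factors were higher in KO (22.0%) and 1 was lower (2.44%), against 6.51% and 6.07% of all 2751 genes in that class. The factors also varied little from clone to clone. The SD of log2 CPM within a genotype had a median of 0.09 for the factors and 0.15 for all genes, and 48 of the 56 factors were below that median of all genes.

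The changes were small, and the median factor did not differ from the median gene by more than 0.01 on the log2 scale. The largest called log2 fold change was 0.34, in Eef2k. The median log2 fold change was -0.01 over the 56 factors and -0.01 over all genes tested, with 25 factors above 0 and 31 below. Groups did not overlap for 6 factors: in 4 every KO clone was above every WT clone (Eef1a1, Eef1b2, Eif3e and Eif3f), and in 2 every KO clone was below (Eef1akmt1 and the uncalled Eef1d). Such separation was seen for 2.54% of all genes upward and for 2.84% downward. Without WT clone 2D, 11 factors were higher in KO, with Eif1a and Eif1ad added, and 1 was lower, Eif5b no longer being called, beside 4.68% and 3.88% of all genes. Without KO clone 3G, 7 were higher and 1 was lower, beside 2.77% and 2.29% of all genes. Without 3I, 6 were higher and 0 were lower, beside 2.47% and 2.31%.

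Depth differed between the genotypes, although the ranges of the library totals overlapped. With the log2 library total as a covariate, 0 of the 11 factors passed the threshold (adjusted p 0.108 to 0.376), and all 11 kept their sign. The standard errors were 1.25 to 1.48 times those of the fit without depth. The log2 fold change was larger in 5 of the 11 (Eef1akmt1, Eef2k, Eif1, Eif3c and Eif5b) and smaller in 6, at 0.573 times its value in Eef1b2 and at 0.779 to 0.979 times in Eef1a1, Eef2, Eif3e, Eif3f and Eif5. In that fit 0.702% of all genes were higher in KO and 0.465% were lower.

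**Figure D1:**
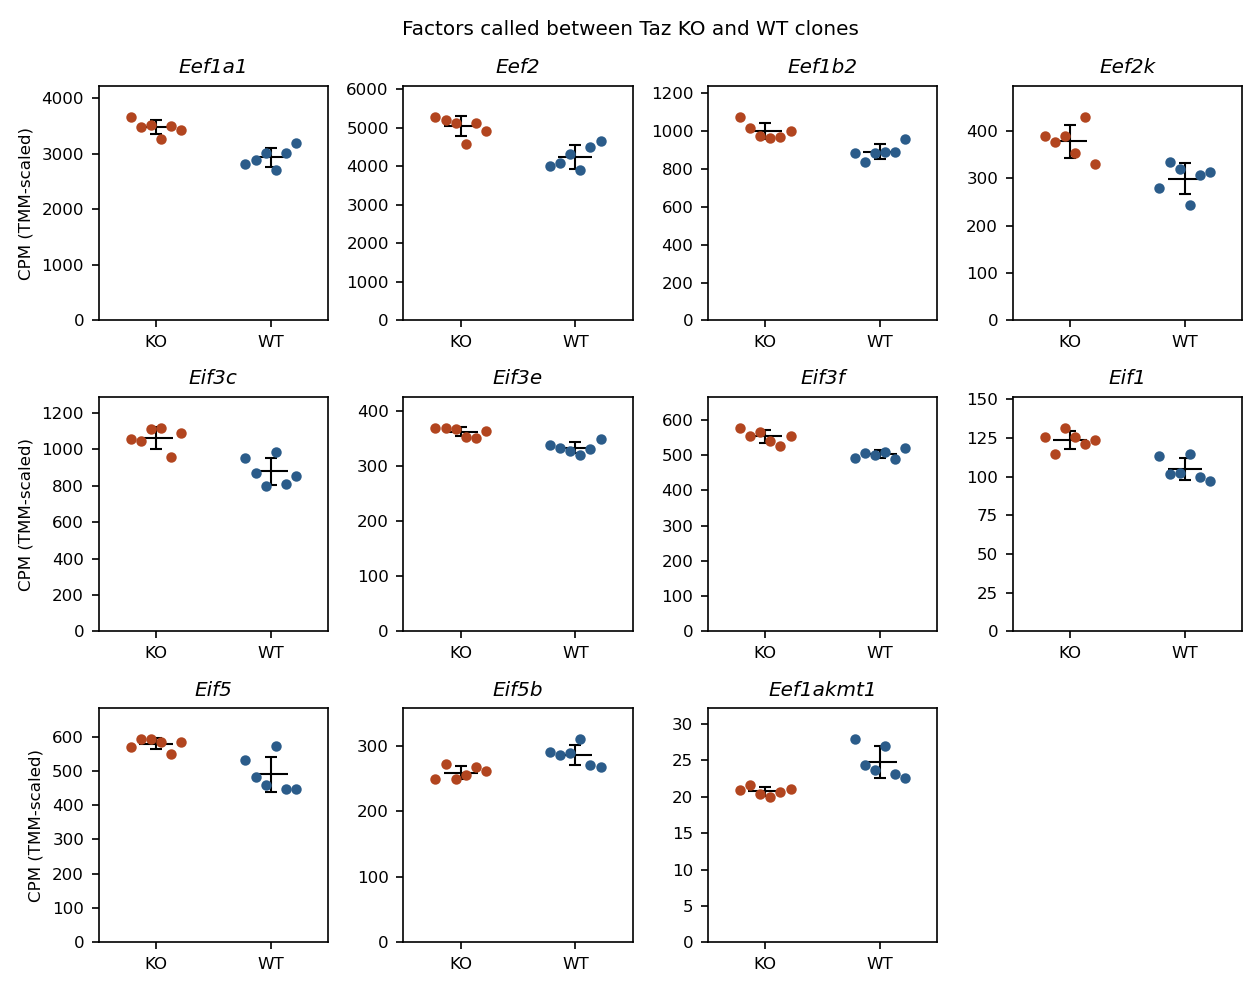
CPM of the 11 called factors in each clone, with KO clones on the left of each panel and WT clones on the right. Points are single clones and bars are the mean and SD (n = 6 each), and every axis starts at 0. In Eef1a1, Eef1b2, Eif3e and Eif3f each KO point lies above all WT points, and in Eef1akmt1 each lies below. In the other 6 panels the groups overlap.

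The elongation factor eEF1A had the smallest adjusted p of all factors. Eef1a1 (ENSMUSG00000037742, chromosome 9), which encodes the eEF1A of most tissues, was at 3673, 3493, 3519.5, 3276, 3512 and 3428 CPM in KO clones, against 2813, 2893, 3014, 2702, 3009 and 3192 CPM in WT clones. No KO clone reached down to the highest WT clone, 2F. The log2 fold change was 0.25 (SE 0.04, adjusted p = 0.00648), a ratio of means of 1.19. It stayed past the threshold whichever single clone was left out, with the adjusted p at most 0.0199. Per kilobase of annotated exon, Eef1a1 was the second most abundant factor at 1288 CPM per kb, behind Eef2 at 1394 and ahead of Eif5a at 547 CPM per kb.

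Eef1a1 has many near-identical copies in the annotation. Of the 50-base stretches of its annotated transcripts, 39.4% also occur in transcripts of other genes, in 20 annotated genes. Where the other gene lies elsewhere in the genome, a read within such a stretch may not be placed and would be missing from the counts. Genes that overlap a factor at the same place also count as sharing, such as Gm27390 within Eef1b2. The same share was 7.10% for Eef2, 8.28% for Eef1b2 and 44.2% for Eef1g. The part of unplaced reads in these differences was not tested.

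Of the 3 subunits of the exchange factor eEF1B, 1 was called, beside 7.94% of all genes. Eef1b2 (ENSMUSG00000025967, chromosome 1), the catalytic eEF1B-alpha subunit, was at 1076, 1016, 973, 962, 967 and 1001 CPM in KO clones, against 883, 839, 886, 889.6, 891 and 958 CPM in WT clones. KO clones were all higher, by a narrow margin between 4J and WT clone 2F. Its log2 fold change was 0.17 (SE 0.04, adjusted p = 0.0221), and the adjusted p was 0.0577 without WT clone 1B. With depth as a covariate its log2 fold change was 0.09 (adjusted p = 0.376). Eef1b2 overlaps Ndufs1 on the opposite strand, and counting ignored strand. Ndufs1 was at 193 CPM in KO clones and 206 CPM in WT clones (adjusted p = 0.402).

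Eef1g, the structural eEF1B-gamma subunit, averaged 247 ± 12.6 CPM in KO clones and 225 ± 8.57 CPM in WT clones and missed the threshold, with a log2 fold change of 0.13 (SE 0.04, adjusted p = 0.0608), though DESeq2 called it. Eef1d, a further exchange subunit, averaged 208 ± 5.92 CPM in KO clones and 237 ± 30.5 CPM in WT clones, a log2 fold change of -0.19 (SE 0.07, adjusted p = 0.115). All KO clones were below all WT clones in Eef1d, but WT clone 2D, at 297 CPM, stood apart from the other WT clones, whose highest value was 243 CPM. For Eef1e1, better known as a partner of the aminoacyl-tRNA synthetase complex, the log2 fold change was 0.10 (adjusted p = 0.511). In all, 2 of the 5 tested members of the eEF1 group were higher in KO and 0 were lower. Among all genes tested, 3.99% were called higher and 3.94% lower. At an unadjusted p under 0.05 there were 4 of the 5, beside 23.7% of all genes.

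Eef2 and its kinase were both higher in KO clones. Eef2 (ENSMUSG00000034994, chromosome 10) was at 5283, 5204, 5113, 4584, 5106 and 4917 CPM in KO clones, against 3991, 4069, 4309.8, 3888, 4491 and 4654 CPM in WT clones. KO clone 4J lay below the highest WT clone, 2F, and the other KO clones lay above it. The log2 fold change was 0.25 (SE 0.05, adjusted p = 0.0148), a ratio of means of 1.19, and the adjusted p stayed at or under 0.0391 with any single clone left out.

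Eef2k (ENSMUSG00000035064, chromosome 7), whose product phosphorylates eEF2 and lowers its activity, was at 389.9, 377, 389, 353, 430.0 and 329 CPM in KO clones, against 280.0, 335, 319, 243, 307 and 312 CPM in WT clones. The lowest KO clone, 4L, was below WT clone 1B, and the others were above all WT clones. Its log2 fold change of 0.34 (SE 0.08, adjusted p = 0.0264) was the largest among the called factors. The call was lost without WT clone 1A or without KO clone 3G, 3I or 4K, where the adjusted p was 0.0570, 0.0578, 0.0597 and 0.0520. Eef2k overlaps the predicted gene Gm15774 on the opposite strand, which was at 0.780 CPM in KO clones and 0.588 CPM in WT clones. Eefsec, which delivers selenocysteine, averaged 46.1 ± 4.53 CPM in KO clones and 47.8 ± 3.27 CPM in WT clones and was not called, with a log2 fold change of -0.05 (adjusted p = 0.705).

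Because Eef2 and Eef1a1 are so abundant, they weigh on the sum of all factors. The 60 factors together took 2.60% ± 0.05 of the counts in genes in KO clones and 2.43% ± 0.06 in WT clones (SD, n = 6 each), with no overlap. Eef2 and Eef1a1 alone took 0.851% ± 0.039 in KO clones and 0.718% ± 0.048 in WT clones. The other 58 factors took 1.75% ± 0.04 in KO clones and 1.71% ± 0.09 in WT clones, and these ranges overlapped.

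**Figure D2:**
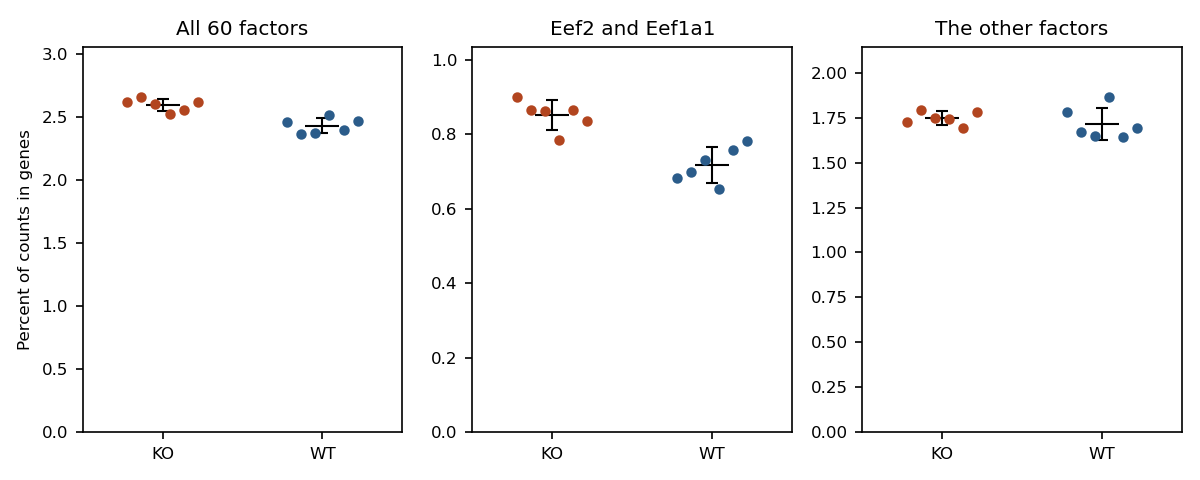
Percent of counts in genes taken by all 60 factors, by Eef2 and Eef1a1, and by the other 58, with KO clones on the left of each panel and WT clones on the right. Points are single clones, bars are the mean and SD, and the vertical axes start at 0 with a different scale in each panel. All 60 together are at 2.52% to 2.66% in KO clones and 2.37% to 2.52% in WT clones, and the 58 others overlap.

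Of the 3 tested enzymes that methylate the elongation factors on lysine, 1 was called, beside 7.94% of all genes. Eef1akmt1 (ENSMUSG00000021951, chromosome 14), a lysine methyltransferase of eEF1A, was at 21.0, 21.6, 20.3, 19.9, 20.6 and 21.0 CPM in KO clones, against 28.0, 24.4, 23.7, 26.9, 23.1 and 22.6 CPM in WT clones. Every KO clone was below every WT clone. This gave a log2 fold change of -0.26 (SE 0.06, adjusted p = 0.0226), with an adjusted p of 0.0533 without KO clone 3I and 0.0539 without 4J. Eef1akmt2, a further eEF1A methyltransferase, showed a log2 fold change of -0.08 (adjusted p = 0.567). Eef2kmt, the methyltransferase of eEF2, had one of -0.09 (adjusted p = 0.65).

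Among the initiation factors that sit at the decoding site, Eif1 was higher in KO clones. eIF1 keeps the scanning ribosome open until it meets a start codon. Eif1 (ENSMUSG00000035530, chromosome 11) was at 125, 114, 132, 126, 121 and 124 CPM in KO clones, against 113, 102, 102, 115, 100.1 and 97.4 CPM in WT clones. KO clone 3H was nearly level with WT clone 2D, just below it, and the other KO clones lay above all WT clones. The log2 fold change was 0.24 (SE 0.05, adjusted p = 0.0127), and the adjusted p was at most 0.0352 with any single clone left out. Of the 50-base stretches of its transcripts, 19.2% are shared with 18 other genes.

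The paralog Eif1b was not called. It averaged 52.7 ± 2.78 CPM in KO clones and 56.3 ± 2.27 CPM in WT clones, a log2 fold change of -0.09 (adjusted p = 0.197). The 2 genes share no 50-base stretch, so reads of that length can be told apart. Per kilobase, Eif1b made up 44.3% ± 1.14 of the Eif1 and Eif1b counts in KO clones and 50.1% ± 2.36 in WT clones, a difference of -5.78 percentage points without overlap (exact two-sided permutation p = 0.00216, the smallest that 6 against 6 clones can give, adjusted over 8 shares 0.00866). Eif1 is itself a called factor, so this share is not separate evidence beside that call.

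eIF1A is likewise encoded by a pair of genes, an autosomal Eif1a and the X-linked Eif1ax. Eif1a averaged 266 ± 7.72 CPM in KO clones and 250.3 ± 17.5 CPM in WT clones with a log2 fold change of 0.09 (adjusted p = 0.25). Eif1ax averaged 286 ± 10.5 CPM in KO clones and 305 ± 15.6 CPM in WT clones with one of -0.09 (adjusted p = 0.158). Neither passed the threshold alone. The X-linked copy made up 45.9% ± 0.55 of the sum per kilobase in KO clones and 49.1% ± 0.79 in WT clones, which is -3.18 percentage points, again without overlap (exact two-sided permutation p = 0.00216, adjusted over 8 shares 0.00866). With any single clone left out, the differences lay between -6.51 and -5.31 points for Eif1b and between -3.38 and -2.94 points for Eif1ax. Eif1ad, a gene with an eIF1A-like domain, showed a log2 fold change of 0.15 (adjusted p = 0.168). Without WT clone 2D, Eif1a and Eif1ad passed the threshold as higher in KO.

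The other 6 shares compared did not pass the threshold. Eif4a2 made up 34.6% ± 1.62 of the helicase pair with Eif4a1 in KO clones and 33.1% ± 1.49 in WT clones. Eif4g2 made up 59.4% ± 0.87 of the Eif4g sum in KO clones and 58.2% ± 1.27 in WT clones. The exact permutation p values of the 6, adjusted over the 8 shares, ran from 0.238 to 0.734. Pairs outside these families were not compared, so how often other gene pairs separate is not known. Eif3j2 shares 2115 stretches of 50 bases with Eif3j1, and the split between this pair is therefore uncertain.

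**Figure D3:**
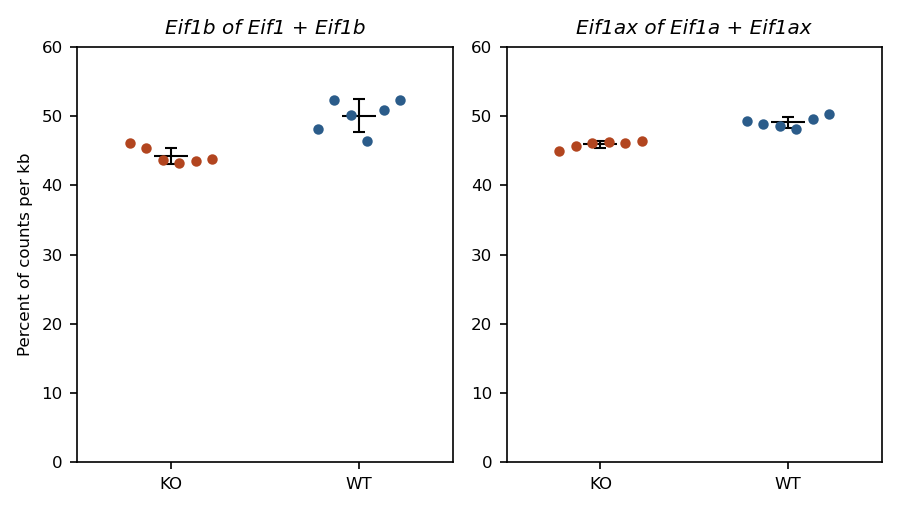
Share of Eif1b in the sum of Eif1 and Eif1b, and of Eif1ax in the sum of Eif1a and Eif1ax, in percent of counts per kilobase, with KO clones on the left and WT clones on the right of each panel. Points are clones and bars are the mean and SD (n = 6 each). KO clones lie at 43.3% to 46.1% for Eif1b and 45.0% to 46.4% for Eif1ax, below WT clones at 46.4% to 52.4% and 48.1% to 50.3%.

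Of the factors that deliver the initiator tRNA, Eif5 was higher in KO clones. eIF5 is the protein that makes eIF2 hydrolyse its GTP at the start codon. Eif5 (ENSMUSG00000021282, chromosome 12) was at 568, 594, 594, 585, 550.4 and 585 CPM in KO clones, against 531, 482, 459, 571, 446 and 447 CPM in WT clones. WT clone 2D, at 571 CPM, lay within the KO range of 550.4 to 594 CPM, and the other WT clones lay below it. Its log2 fold change came to 0.24 (SE 0.06, adjusted p = 0.0309). The call was lost on leaving out any one of 9 clones (1B, 1C, 2E, 2F, 3G, 3H, 3I, 4J and 4L), with adjusted p values of 0.0525 to 0.0706.

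The 2 tested eIF2 subunits among the factors were not called by edgeR or DESeq2. Eif2s1, the alpha subunit that stress kinases phosphorylate, averaged 201 ± 8.67 CPM in KO clones and 207 ± 23.9 CPM in WT clones, a log2 fold change of -0.04 (adjusted p = 0.776). Eif2s2, the beta subunit, averaged 145 ± 7.02 CPM in KO clones and 134 ± 26.0 CPM in WT clones, a log2 fold change of 0.11 (adjusted p = 0.567). Eif2a and Eif2d, which are single proteins outside the eIF2 complex, had log2 fold changes of -0.03 and 0.08.

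None of the 5 subunits of eIF2B, the exchange factor that reloads eIF2 with GTP, passed the threshold in edgeR, beside 7.94% of all genes. An unadjusted p under 0.05 was found for 1 of the 5, beside 23.7% of all genes. That was Eif2b1, the alpha subunit, at 84.0 ± 6.07 CPM in KO clones and 96.0 ± 14.0 CPM in WT clones, with a log2 fold change of -0.19 (adjusted p = 0.209). Eif2b5, the catalytic epsilon subunit, averaged 139.7 ± 5.83 CPM in KO clones and 145 ± 13.9 CPM in WT clones, a log2 fold change of -0.06 (adjusted p = 0.604). DESeq2 also called 0 of the 5, beside 6.80% of all genes higher and 6.84% lower in KO.

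Within eIF3, the scaffold that covers the solvent side of the small subunit, 3 of 14 subunits were higher in KO and 0 were lower. Beside this, 3.99% of all genes tested were called higher and 3.94% lower. In edgeR 5 of the 14 had an unadjusted p under 0.05, beside 23.7% of all genes. In all, 8 of the 14 had a log2 fold change above 0, beside 5713 of all 11819 genes tested. Eif3c (ENSMUSG00000030738, chromosome 7), a core subunit that contacts eIF1 and eIF5, was at 1057, 1046, 1110.0, 1119, 956 and 1090.5 CPM in KO clones, against 952, 873, 799, 986, 809 and 856 CPM in WT clones. KO clone 4K fell below WT clone 2D, and the remaining KO clones lay above all WT clones. Its log2 fold change was 0.27 (SE 0.06, adjusted p = 0.0162), with an adjusted p of at most 0.0436 when any single clone was left out.

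Eif3e (ENSMUSG00000022336, chromosome 15) was at 371, 369, 368, 354, 352 and 365 CPM in KO clones, against 339, 334, 328, 322, 331 and 350.1 CPM in WT clones. Its KO clones all lay higher, with 4K and WT clone 2F closest. Eif3e had a log2 fold change of 0.12 (SE 0.03, adjusted p = 0.018), and the adjusted p was 0.053 without KO clone 3I. Eif3f (ENSMUSG00000031029, chromosome 7), one of the subunits with an MPN domain, was at 578, 555, 565, 539, 526 and 556 CPM in KO clones, against 493, 505, 502, 509.9, 488 and 520.4 CPM in WT clones. Again no KO clone fell into the WT range. Eif3f had a log2 fold change of 0.14 (SE 0.03, adjusted p = 0.0147), with an adjusted p of at most 0.0438 when any single clone was left out.

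Eif3h, the other MPN-domain subunit, averaged 301 ± 5.39 CPM in KO clones and 284 ± 8.27 CPM in WT clones and missed the threshold at a log2 fold change of 0.08 (SE 0.03, adjusted p = 0.0779), though DESeq2 called it. Eif3m differed by 0.08 (adjusted p = 0.156) on the log2 scale. The large subunits Eif3a and Eif3b, which form the core with Eif3c, had log2 fold changes of 0.09 and -0.07. The remaining subunits lay between -0.06 (Eif3g) and 0.11 (Eif3j2, a rare copy at 0.817 ± 0.150 CPM in KO clones and 0.754 ± 0.149 CPM in WT clones).

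**Figure D4:**
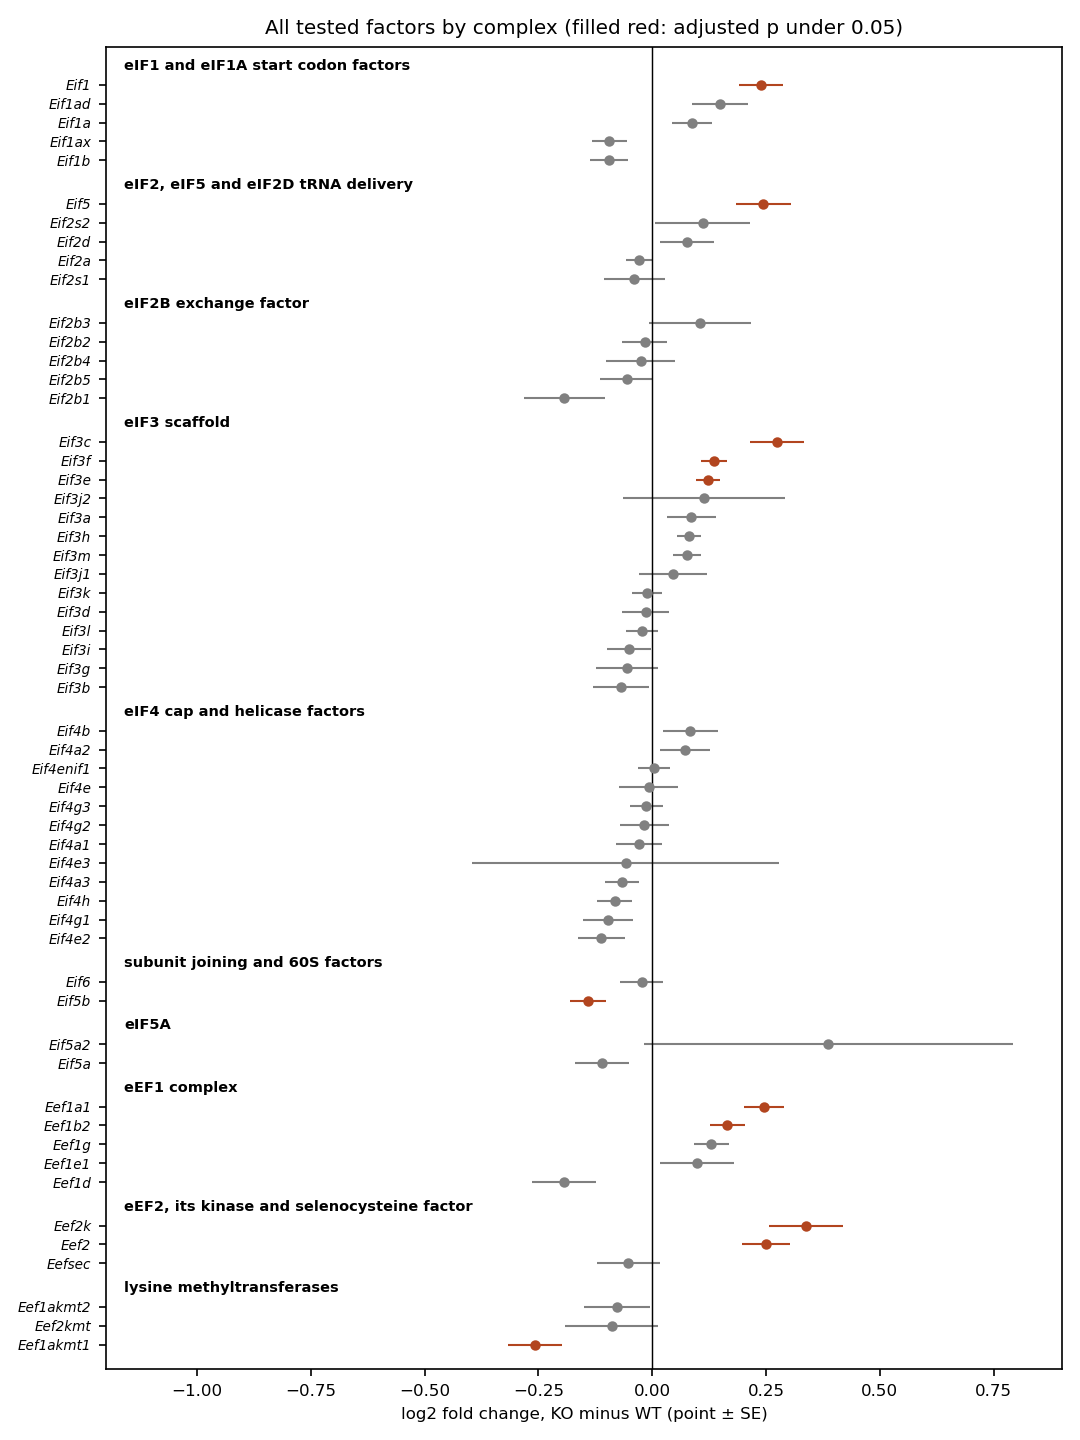
Log2 fold change, KO minus WT, of the 56 tested factors, arranged by complex. Points are genes, bars are standard errors from the edgeR fit, and filled red points passed an adjusted p of 0.05. The called points lie to the right of 0 in the eIF1, eIF2 and eIF5, eIF3, eEF1 and eEF2 groups, the lone called points to the left are Eif5b and Eef1akmt1, and no point of eIF2B, eIF4 or eIF5A is called.

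The eIF4 factors, which bind the cap and unwind the mRNA, gave 0 calls among 12 tested genes in edgeR, beside 7.94% of all genes. DESeq2 also called 0 of the 12, beside 6.80% of all genes higher and 6.84% lower in KO. With 12 genes, 0 calls does not set the group apart from all genes. In edgeR 1 of the 12 had an unadjusted p under 0.05, beside 23.7% of all genes. That 1 gene was Eif4e2, a cap-binding relative of Eif4e, at 116 ± 3.62 CPM in KO clones and 126 ± 10.7 CPM in WT clones, with a log2 fold change of -0.11 (adjusted p = 0.208). Eif4e, the cap-binding protein itself, averaged 121 ± 4.16 CPM in KO clones and 122 ± 13.8 CPM in WT clones, a log2 fold change of -0.01 (adjusted p = 0.96). Eif4h, a cofactor of the eIF4A helicase, showed a log2 fold change of -0.08 (adjusted p = 0.221), and Eif4b, a further cofactor, one of 0.08 (adjusted p = 0.444). The scaffold Eif4g1 was at 938 ± 33.1 CPM in KO clones and 1003 ± 88.8 CPM in WT clones, a log2 fold change of -0.10 (adjusted p = 0.305). Eif4e3 varied most in this group. Its values were 8.56, 39.4, 30.8, 46.1, 55.8 and 27.9 CPM in KO clones, against 25.2, 33.8, 40.8, 33.7, 34.0 and 49.8 CPM in WT clones, lowest in KO clone 3G and overlapping widely.

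Of the 2 large-subunit factors, 1 was called, beside 7.94% of all genes. Eif5b (ENSMUSG00000026083, chromosome 1), the GTPase that joins the ribosomal subunits, was at 249, 272, 249, 256, 267 and 261 CPM in KO clones, against 289.9, 286, 288, 311, 270.5 and 268 CPM in WT clones. KO clone 3H lay above WT clones 2E and 2F, and the other KO clones lay below all WT clones. Its log2 fold change was -0.14 (SE 0.04, adjusted p = 0.049), and the call rests on a narrow margin, since it was lost on leaving out any one of 10 clones, all but 2E and 2F, with the adjusted p as high as 0.109. Eif5b overlaps Rev1 on the opposite strand, and Rev1 was at 36.6 CPM in KO clones and 36.5 CPM in WT clones (adjusted p = 0.988). Eif6, which keeps free large subunits apart from small ones, averaged 156 ± 6.41 CPM in KO clones and 159 ± 11.2 CPM in WT clones, a log2 fold change of -0.02 (adjusted p = 0.82).

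eIF5A, the hypusine-bearing factor that helps ribosomes past difficult stretches such as proline runs, was not called in either copy. Eif5a averaged 1251 ± 54.1 CPM in KO clones and 1350.1 ± 131 CPM in WT clones, a log2 fold change of -0.11 (adjusted p = 0.286). Its highest clone was again WT clone 2D, at 1601 CPM, with the next WT clone at 1391 CPM. Eif5a2, a rare copy at 4.97 ± 2.91 CPM in KO clones and 3.80 ± 1.07 CPM in WT clones, had the largest fitted difference of any tested factor and the largest error, a log2 fold change of 0.39 (SE 0.41, adjusted p = 0.612). With depth as a covariate its sign turned, to -0.34.

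The 4 factors that did not pass the filter were close to absent. Eef1a2, the eEF1A of muscle and neurons, had 43 counts in KO clone 3G, 1 count in WT clone 2F and 0 elsewhere. Alb, the hepatocyte albumin gene, was also at 122 CPM in 3G, and its part in the Eef1a2 counts was not tested. Eef1akmt3 had between 3 and 13 counts per clone and Eif4ebp3 between 0 and 4. Eif4e1b, a germ-line relative of Eif4e, had 0 counts in every clone, which allows at most 3 counts, or 0.109 to 0.158 CPM depending on the library. These limits cover counting error only.

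The comparison was also made between the title numbers, 3 clones each. In the 4 pairs of a KO number with a WT number (3 with 1, 3 with 2, 4 with 1 and 4 with 2), edgeR called 0 of the 56 factors in every pair. Unadjusted p values under 0.05 were found for 15, 12, 14 and 13 factors (26.8%, 21.4%, 25.0% and 23.2%), beside 16.4%, 14.3%, 12.6% and 12.4% of all genes. The smallest adjusted p was 0.0533 in the first pair, shared by Eef1b2, Eef2 and Eif3f, 0.106 for Eif3f in the second, 0.175 for Eef1a1 in the third and 0.211 for Eif1 in the fourth. In the same pairs 0.99%, 0.423%, 0.33% and 0.169% of all genes were called higher in KO, and 0.575%, 0.296%, 0.178% and 0.0931% lower, so few genes of any kind passed with 3 clones a group. All 11 called factors had the same sign in the 4 pairs, as did 27 of the 45 uncalled ones. The 11 were called on these same 12 clones, so their common sign was largely set in advance. The share with 1 sign over all genes was not counted. Each library enters 2 of the pairs, so the pairs do not count as separate evidence.

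Within a genotype, no factor passed the threshold between title numbers. edgeR called 0 factors between numbers 4 and 3 in KO clones and 0 between numbers 2 and 1 in WT clones, beside 0% of all genes called in either direction. An unadjusted p under 0.05 was found for 1 factor in each, beside 2.06% and 3.52% of all genes. Over the 4 pairs, the log2 fold change of Eif1 lay between 0.22 and 0.25, that of Eif3c between 0.26 and 0.29, that of Eif5 between 0.23 and 0.26 and that of Eef1a1 between 0.20 and 0.29. Eef2 had a wider range of 0.16 to 0.33, and Eef1b2 one of 0.10 to 0.23.

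Genes that work with the factors were taken from 5 lists. These include Eif4ebp1, Eif4ebp2, Eif2s3x and Eif2s3y, which the naming rule left out. They also include the untested Eif4ebp3, which is among the 60 factors as well. Of 52 such genes, 50 were tested, 3 were higher in KO clones and 2 were lower, a share near that of all genes (3.99% higher and 3.94% lower). The median log2 fold change was -0.01, the same as over all genes. With depth as a covariate 0 of the 50 were called.

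The regulators of the cap-binding complex, the longest list with 17 tested genes, held 3 of the 5 calls. Of the 17, 2 were higher in KO and 1 was lower, beside 3.99% and 3.94% of all genes. Eif4ebp1, a repressor that takes eIF4E away from eIF4G until mTORC1 phosphorylates it, was at 148, 149, 166, 149.5, 129 and 146 CPM in KO clones, against 108, 98.0, 86.5, 129, 82.8 and 99.0 CPM in WT clones. The lowest KO clone, 4K, and the highest WT clone, 2D, nearly met, and the groups did not overlap. The log2 fold change was 0.56 (SE 0.10, adjusted p = 0.00652), larger than that of any called factor, and the call held with any single clone left out. Eif4ebp2, its relative, was not called, at 179 ± 4.70 CPM in KO clones and 182 ± 13.0 CPM in WT clones with a log2 fold change of -0.02 (adjusted p = 0.814).

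The 2 kinases that phosphorylate eIF4E were called in opposite directions. Mknk1 was at 79.3, 69.5, 82.6, 81.1, 75.1 and 71.0 CPM in KO clones, against 66.8, 68.3, 64.0, 53.1, 55.8 and 70.7 CPM in WT clones, a log2 fold change of 0.28 (SE 0.08, adjusted p = 0.0453). KO clone 3H lay below WT clone 2F, and the other KO clones lay above all WT clones. Mknk2 was at 232, 277, 260.4, 236, 289 and 262 CPM in KO clones, against 292, 305, 297, 293, 298 and 305 CPM in WT clones, a log2 fold change of -0.20 (SE 0.05, adjusted p = 0.0342), and here every KO clone was below every WT clone. Both calls rest on narrow margins. The call of Mknk1 was lost on leaving out any clone but 2F or 3H, with the adjusted p as high as 0.105, and that of Mknk2 on leaving out 1A, 1B, 1C, 2F, 3G, 3I, 4J or 4L, with the adjusted p as high as 0.0678. Pabpc1, the poly(A)-binding protein that meets eIF4G, averaged 3529.6 ± 137 CPM in KO clones and 3233 ± 114 CPM in WT clones without overlap and missed the threshold in edgeR, with a log2 fold change of 0.13 (adjusted p = 0.0528). DESeq2 and limma voom called it.

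Of the 7 tested termination and recycling genes, edgeR called 1, beside 7.94% of all genes. In edgeR 2 of the 7 had an unadjusted p under 0.05, beside 23.7% of all genes. Mcts1, which with Denr helps release tRNA from the small subunit after termination, was at 34.9, 42.6, 41.9, 45.4, 44.6 and 48.3 CPM in KO clones, against 59.5, 49.5, 49.4, 53.4, 55.5 and 55.8 CPM in WT clones. No KO clone reached the lowest WT clone. Mcts1 had a log2 fold change of -0.33 (SE 0.07, adjusted p = 0.0216). Denr itself averaged 121 ± 5.44 CPM in KO clones and 125 ± 9.47 CPM in WT clones, a log2 fold change of -0.05 (adjusted p = 0.623). Hbs1l, a ribosome rescue GTPase, averaged 141 ± 4.80 CPM in KO clones and 159 ± 13.8 CPM in WT clones without overlap, a log2 fold change of -0.17 (adjusted p = 0.0739), and was called by DESeq2.

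Of the 9 genes that make hypusine on eIF5A or diphthamide on eEF2, 1 was called, beside 7.94% of all genes. At an unadjusted p under 0.05 there were 4 of the 9, beside 23.7% of all genes. Dph6, which amidates the last diphthamide precursor, was at 47.6, 48.1, 46.1, 43.7, 45.7 and 45.8 CPM in KO clones, against 39.8, 40.1, 38.1, 41.1, 42.0 and 43.3 CPM in WT clones, with KO clones all higher and a log2 fold change of 0.18 (SE 0.04, adjusted p = 0.0176). Dph1, Dph2 and Dph5, which act in the earlier steps, were not called, with log2 fold changes of 0.13, 0.14 and 0.10.

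Among the 8 tested regulators of eIF2 outside its kinases, edgeR called 0, beside 7.94% of all genes. An unadjusted p under 0.05 was found for 3, beside 23.7% of all genes. DESeq2 called these 3 (Ppp1r15a and Eif2s3y higher, Cdc123 lower in KO), beside 6.80% of all genes higher and 6.84% lower. Ppp1r15a (GADD34), the stress-induced phosphatase subunit of eIF2, averaged 18.7 ± 2.97 CPM in KO clones and 14.1 ± 2.10 CPM in WT clones, a log2 fold change of 0.41 (adjusted p = 0.0658). Cdc123, an assembly factor of eIF2, averaged 142 ± 2.89 CPM in KO clones and 152 ± 6.12 CPM in WT clones without overlap, at -0.10 (adjusted p = 0.0577). For the 9 tested translation factors of mitochondria, the organelle whose lipid Tafazzin remodels, edgeR and DESeq2 called 0. The shares of all genes were 7.94% in edgeR, and 6.80% higher and 6.84% lower in DESeq2. An unadjusted p under 0.05 in edgeR was found for 1 of the 9, beside 23.7% of all genes. That was Tufm, the mitochondrial counterpart of eEF1A, at 18.7 ± 1.14 CPM in KO clones and 21.7 ± 2.23 CPM in WT clones, with a log2 fold change of -0.21 (adjusted p = 0.0995).

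**Figure D5:**
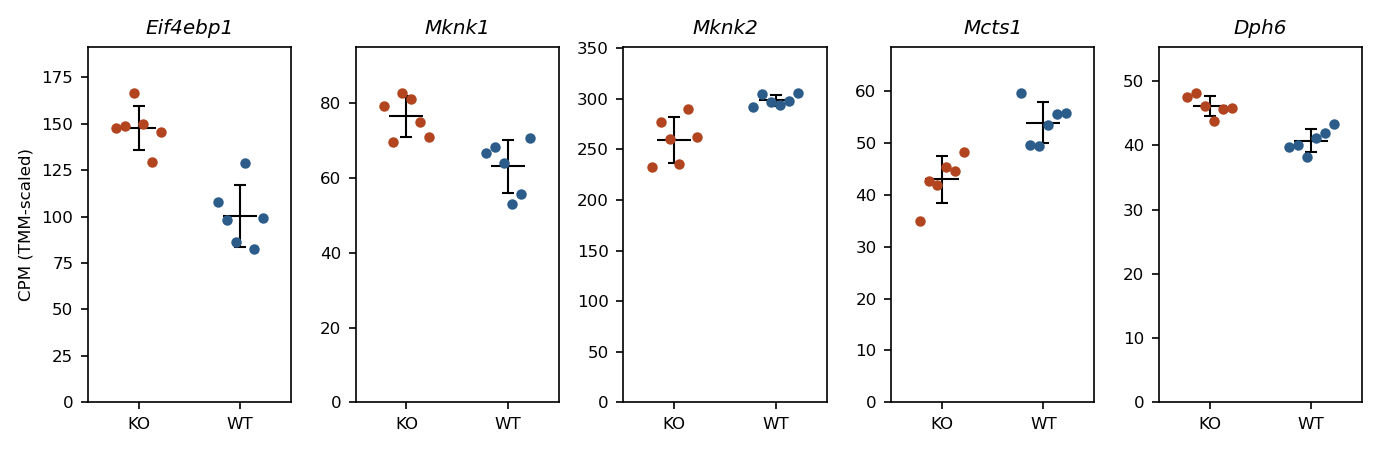
CPM of the 5 called genes that work with the factors, with KO clones on the left and WT clones on the right of each panel. Points are single clones, bars are the mean and SD (n = 6 each), and axes start at 0. KO points of Eif4ebp1 and Dph6 all lie above the WT points, those of Mknk2 and Mcts1 all lie below, and those of Mknk1 overlap with WT clone 2F.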

How the data were processed

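RNA from 6 KO and 6 WT clones was sequenced. The deposited values were raw read counts per Ensembl gene, 1 table a clone. STAR, HTSeq and edgeR and the build mm9 are named, with no version, per the submitters' processing notes. Counting ignored strand, per the file names. The HTSeq totals at the end of each table name no gene and were left out. Besides reads aligned to more than 1 place (given above), 3.65% ± 0.25 of records in KO clones and 3.45% ± 0.33 in WT clones (SD, n = 6 each) lay outside genes, and 1.57% ± 0.033 and 1.62% ± 0.028 were ambiguous. Symbols were found for 32860 of 37583 identifiers (GENCODE M21).

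Genotypes were compared with edgeR 4.0.16 in R 4.3.3 by quasi-likelihood F-tests (TMM scaling, filterByExpr by genotype). P-values were adjusted by the Benjamini-Hochberg method across the 11819 genes tested, and an adjusted p under 0.05 counted as a call. SE is the log2 fold change over the square root of F. CPM values are TMM-scaled. Paralog shares used CPM per kilobase of exon and exact two-sided permutation over 6 and 6 clones. Alternatives changed the scaling, the filter, the clones or the covariate alone, or the whole test with its own scaling (DESeq2 1.42.0 and limma 3.58.1, the second also with title numbers as correlated groups). The tests were tried on simulated counts. No pair of libraries was near-identical. Nothing in the labels says that clones came from separate embryos, so p-values measure the spread between these clones, which may be technical.

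The factors and gene lists were chosen with earlier results of these data known. Named were all called factors, the 3 uncalled with the largest fold change, the 3 most abundant per kilobase, at least 2 of each complex by smallest p, the untested ones and called related genes. Others were named after their values were seen. Paralog proteins were not compared here.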

Additional observations from a re-analysis of the deposited data

Results flagged for a closer look

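For each factor, the clone farthest from the others of its genotype was looked at when the gap to its nearest neighbour was too large a part of the group's range by Dixon's test at the 95% level. Of 112 groups, 7 passed, where chance gives about 5%. In 6 of the 7 the clone was WT clone 2D and it was the highest. Eif5a was at 1601 CPM in 2D, with the next WT clone at 1391 CPM. Eif4h was at 662 CPM against a next value of 591 CPM. Eef1d was at 297 CPM and the next at 243 CPM. Eif4a3 was at 222 CPM and the next at 202 CPM. Eif4a1 was at 212 CPM and the next at 184 CPM. Eif1ad was at 169 CPM and the next at 141 CPM. The 7th was the rare Eif3j2 in KO clone 4L, at 1.10 CPM with the next KO clone at 0.81 CPM. Clone 2D is also the one with the highest sum of mature neutrophil markers, 1510 CPM, and their part in these values was not tested.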

How the results depend on the processing

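No paired analysis was possible because the genotypes share no title number. Of the 11 called factors, 5 (Eef1a1, Eef2, Eif1, Eif3c and Eif3f) were called whichever 1 of the 12 clones was left out, and 6 lost the call in at least 1 such fit. Over these fits the factors called higher ranged from 6 (without KO clone 3I) to 11 (without WT clone 2D) and those called lower from 0 to 2, and the related genes called from 2 to 3 higher and from 1 to 2 lower. With DESeq2 size factors, with upper-quartile scaling and with limma voom, 9 were higher and 1 was lower, Eif5b being lost. DESeq2 called 11 higher and 2 lower, and 6 related genes higher and 4 lower, beside 6.80% and 6.84% of all genes. With no filter on low counts, 22586 genes were tested and 4 factors were higher and 0 lower, beside 1.2% and 1.24% of all genes. Summing counts by title number left 2 higher and 0 lower with 2 samples a group and 13800 genes tested. With the log2 library total as a covariate 0 were higher and 0 lower, with larger standard errors for all 11 called factors. A limma voom fit that treats clones of 1 title number as correlated gave 11 higher and 4 lower, with a correlation of -0.17 and beside 9.91% and 9.52% of all genes. The negative correlation made standard errors smaller, as in Eef1a1 (0.0331, against 0.0417 in limma voom without it). This fit is therefore no safeguard against a shared origin of clones.

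Eif5a2, at 0.39 with an SE of 0.41, turned to -0.34 with the depth covariate. A few values near 0 also changed sign. Without 1 clone, Eif2s1 ranged from -0.067 to 0.018 and Eif6 from -0.049 to 0.013, both turning without WT clone 2D. Among paralog shares, Eif4e2 ranged from -2.29 to 0.320 points (turning without KO clone 4K), Eif4g3 from -0.0015 to 0.231 (without WT clone 2D) and Eif3j2 from -0.041 to 0.741 (without KO clone 4L). Eif4a2 ranged from 1.07 to 2.01 points and passed an unadjusted exact permutation p of 0.05 only without WT clone 1C. Depth limits the factors under the filter, where 3 counts are 0.109 to 0.158 CPM.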
